A study of Mus musculus with 16 samples.

Results

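Atp1b1, Atp1b2 and Atp1b3 encode the beta subunits of the sodium pump (the Na,K-ATPase) and were examined in dopaminergic neurons of the substantia nigra pars compacta (SNc). They were chosen by name, not by their values, as genes of the main consumer of ATP during firing. Earlier results of these data were known at that choice. All 3 genes were found among the 25006 gene identifiers of the count files. Messenger RNA was obtained by RiboTag, where cells with Cre recombinase make an epitope-tagged ribosomal protein and the mRNA on their ribosomes is pulled down with an antibody against the tag. One library was made from each of 8 control mice, which were DAT-Cre +/-, and of 8 MCU-KO mice, whose genotype was DAT-Cre+/- MCU fl/fl, at postnatal day 45, 30 days after a viral vector with the Cre-dependent tag had been injected into the SNc. Cre was driven from the dopamine transporter locus in both groups, so that control mice carried Cre and the vector as well but no floxed Mcu, and effects of the deletion cannot be told apart from other differences between the lines.

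The sodium pump exports Na+ and imports K+ at the cost of ATP, and so restores the gradients that every action potential runs down. Each pump pairs a catalytic alpha subunit with a glycosylated beta subunit, which is needed for the pump to fold, leave the endoplasmic reticulum and reach the plasma membrane, and which also shapes its affinity for K+. The beta1 subunit (Atp1b1) is the most widespread and is abundant in neurons, the beta2 subunit (Atp1b2) was described in glia as an adhesion molecule and occurs in some neurons, and the beta3 subunit (Atp1b3) is found in many tissues. MCU is the pore of the mitochondrial calcium uniporter, through which calcium reaches the enzymes that raise ATP production.

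The 3 genes lie on different chromosomes, all on the minus strand of GRCm38. Atp1b1 (ENSMUSG00000026576) spans chr1:164437109-164458355 with 3081 bases of merged exons. Atp1b2 (ENSMUSG00000041329) spans chr11:69599736-69605942 with 4085 bases, and Atp1b3 (ENSMUSG00000032412) spans chr9:96332655-96364442 with 2389 bases. The first 60 coding bases are shown to let the isoforms be told apart by their sequence. The start codon is in capitals, and the stretches lie at chr1:164457798-164457857, chr11:69605313-69605372 and chr9:96364095-96364154.
Atp1b1: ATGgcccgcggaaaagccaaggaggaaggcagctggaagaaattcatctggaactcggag
Atp1b2: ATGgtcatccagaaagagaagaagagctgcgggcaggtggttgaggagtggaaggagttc
Atp1b3: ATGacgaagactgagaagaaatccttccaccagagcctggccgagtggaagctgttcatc

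Over the whole coding sequence, 61.6% of 833 aligned bases were identical between Atp1b1 and Atp1b2, 59.3% of 796 between Atp1b1 and Atp1b3, and 60.4% of 816 between Atp1b2 and Atp1b3. The longest identical stretch between any pair of them was 19 bases, shared by Atp1b1 and Atp1b2. It is shown in capitals within 60 coding bases (bases 625 to 684 of Atp1b1 and 583 to 642 of Atp1b2), since it limits how alike reads of these genes can be.
Atp1b1: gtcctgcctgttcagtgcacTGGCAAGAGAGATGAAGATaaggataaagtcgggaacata
Atp1b2: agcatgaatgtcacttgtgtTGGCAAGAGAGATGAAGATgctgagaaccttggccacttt
The coding sequences of the 3 genes thus had no stretch of 50 bases in common. Outside this family, Atp1b1 shared 15.8% of its 3028 stretches of 50 bases with Nme7, a gene on the opposite strand that covers 575 of its 3081 exon bases, while the median level of Nme7 was 5.35 CPM (counts scaled to the total of each library) in control and 5.58 CPM in MCU-KO mice. Whether the counting used strand is not given in the sources used here, so reads from this overlap cannot be told apart. Atp1b3 shared 9.71% of its stretches with Gm1848, which was not analysed here, and Atp1b2 shared none of its 4240.

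Libraries held 18999107 to 22016362 counts in control and 14129527 to 20582204 in MCU-KO mice, and in MCU-KO mouse 8, the shallowest, 3 counts corresponded to 0.212 CPM. Mcu, the targeted gene, lay at 120.3, 401 and 828 normalized counts (lowest, median and highest, counts divided by DESeq2's size factors) in control mice and at 5.82, 246 and 410.1 in MCU-KO mice. The groups overlapped for Mcu, with 5 of 8 MCU-KO mice at or above the lowest control mouse. Its log2 fold change was -1.19 ± 0.59 (SE, edgeR's quasi-likelihood test, unadjusted p = 0.0569, adjusted p = 1.00). The unadjusted p for Mcu was 0.0405 with DESeq2 and 0.0421 with limma-voom. These counts cover the whole gene, and the paper reported lower Mcu mRNA in MCU-KO mice by quantitative PCR on RiboTag RNA. The labelled cell type was met by its markers, as the 10 dopaminergic genes, led by Th (2501 CPM per kb) and Slc6a3 (939 CPM per kb), summed to between 12051 and 19374 CPM across all mice. Marker mRNA of other cell types was found in the libraries too, and no marker gene of any list was at 0 in all mice of a group. Whether it came from other cells was not tested. The 12 astrocyte genes, led by Aldoc and S100b, summed to 998 to 1982 CPM and the 8 oligodendrocyte genes, among them Mbp, to 2835 to 6791 CPM. The 7 microglial genes, led by C1qb and C1qa, summed to 41.5 to 262 CPM, and the 9 genes of other neurons, led by Pvalb and Gad2, to 162 to 455 CPM. In such bulk samples, fewer cells of a type and less RNA per cell cannot be told apart.

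In the libraries of control mice, Atp1b1 was the most abundant beta subunit message. The length-corrected level was 410 ± 21.3 CPM per kb of merged exons for Atp1b1 (SD, n = 8), 95.8 ± 7.59 for Atp1b3 and 23.5 ± 7.26 for Atp1b2. Atp1b1 was thereby above 99.0% of the 12383 tested genes with a known length, at rank 130. Atp1b3 stood above 94.2% of them and Atp1b2, the lowest of the 3 beta subunit genes examined, above 80.0%.

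As shares of the sum of the 3 levels per kb, Atp1b1 made up 77.5% ± 1.17 (SD, n = 8) in control mice, with a range of 75.6% to 79.6%. Atp1b3 held 18.1% ± 1.28, from 16.5% to 19.9%, and Atp1b2 4.41% ± 1.19, from 3.07% to 6.03%. The ranges of the shares did not touch, and the order was Atp1b1, Atp1b3 and Atp1b2 in 8 of 8 mice. Atp1b1 exceeded Atp1b3 4.29-fold, a log2 ratio of levels per kb of 2.10 ± 0.11 (SD, n = 8; exact sign-flip permutation test, two-sided, p = 0.0078). Atp1b3 exceeded Atp1b2 4.23-fold, with a log2 ratio of 2.08 ± 0.45 (exact p = 0.0078), and Atp1b1 exceeded Atp1b2 18.1-fold, with 4.18 ± 0.40 (exact p = 0.0078). This is the smallest p that 8 mice allow, and Benjamini-Hochberg adjustment over the 3 pairs left it at 0.0078. The pair without Atp1b2 was the steadiest of them, since its SD between mice was 0.11 on the log2 scale against 0.40 and 0.45 for the pairs with Atp1b2.

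**Figure D1:**
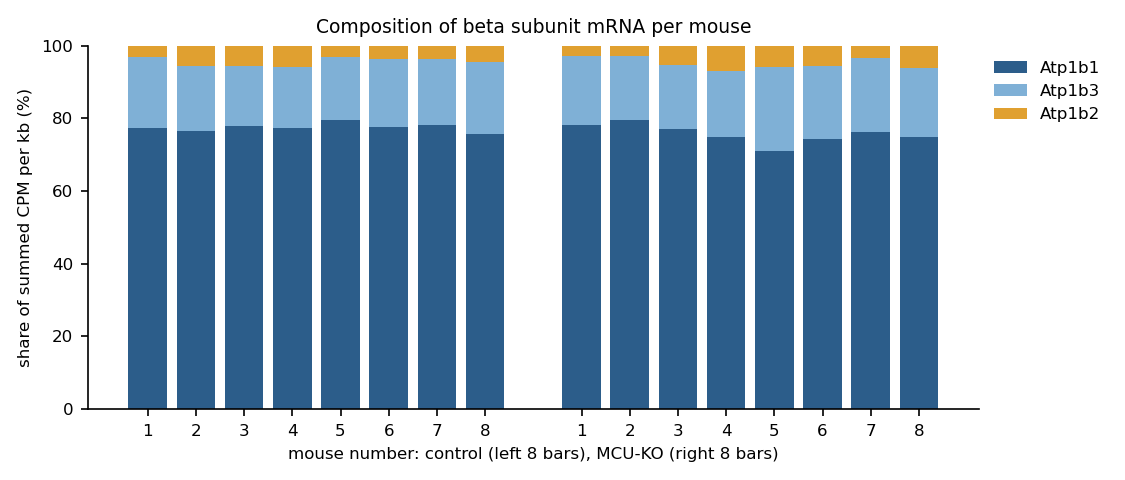
Share of each beta subunit gene in the summed level (CPM per kb of merged exons) of the 3 genes, in percent, for each of 8 control and 8 MCU-KO mice. Atp1b1 held between 70.9% and 79.6% in every mouse, Atp1b3 between 16.5% and 23.3% and Atp1b2 between 2.76% and 6.96%.

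The same order held in 8 of 8 MCU-KO mice. Atp1b1 made up 75.7% ± 2.63 of the summed level per kb (SD, n = 8), Atp1b3 19.4% ± 1.90 and Atp1b2 4.90% ± 1.58. MCU-KO mouse 5 had both the lowest share of Atp1b1, 70.9%, and the highest of Atp1b3, 23.3%. The log2 ratios of the levels were 1.97 ± 0.18 for Atp1b1 over Atp1b3, 2.05 ± 0.51 for Atp1b3 over Atp1b2 and 4.02 ± 0.55 for Atp1b1 over Atp1b2 (SD, n = 8). The isoform balance did not differ detectably between the genotypes. MCU-KO minus control, the log2 ratio of Atp1b1 to Atp1b3 differed by -0.13 (two-sided exact permutation test of 8 mice against 8, p = 0.103, adjusted 0.308 over the 3 pairs). The differences were -0.16 for Atp1b1 to Atp1b2 (exact p = 0.510, adjusted 0.765) and -0.028 for Atp1b3 to Atp1b2 (exact p = 0.908, adjusted 0.908). The last lay between -0.13 and 0.067 when single mice were left out. Without length correction, the 3 genes together came to 1588 ± 93.5 CPM in control and 1545 ± 205 CPM in MCU-KO mice (SD, n = 8).

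The second question was whether deletion of Mcu moved the amount of any beta subunit message. Atp1b1, the main neuronal isoform, lay at 22788, 24194 and 26556 normalized counts in control mice (lowest, median and highest) and at 18754, 22675 and 28363 in MCU-KO mice. The groups overlapped, but 4 MCU-KO mice lay below all control mice and 2 above all of them. The means were 24408 ± 1188 and 23163 ± 3150 (SD, n = 8 each). Its log2 fold change in MCU-KO against control was -0.075 ± 0.079 (SE, edgeR's quasi-likelihood test, adjusted p = 1.00), with a 95% confidence interval from -0.24 to 0.088, which is a change between -15.2% and 6.31%.

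Atp1b3 lay at 3952, 4352 and 4987 normalized counts in control mice and at 3804, 4280 and 5856 in MCU-KO mice. Here 3 MCU-KO mice were above and 3 below all control mice, with almost equal medians. The means were 4424 ± 372 and 4615 ± 869 (SD, n = 8 each). The log2 fold change was 0.061 ± 0.11 (SE, edgeR, adjusted p = 1.00), with a 95% confidence interval from -0.17 to 0.29, or -10.9% to 22.1%.

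Atp1b2 lay at 1291, 1658 and 2595 normalized counts in control mice and at 1090, 1941 and 3333 in MCU-KO mice. The wide ranges overlapped, and 5 of 8 MCU-KO mice fell within the control range. The means were 1851 ± 556 and 1991 ± 736 (SD, n = 8 each). Its log2 fold change was 0.11 ± 0.22 (SE, edgeR, adjusted p = 1.00), with a 95% confidence interval from -0.35 to 0.56, or -21.4% to 47.4%. It rested on MCU-KO mouse 4, the highest for this gene, without which it was -0.040.

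With edgeR's quasi-likelihood test, 0 of the 3 genes had an adjusted p under 0.05, against 0.178% of the 12390 genes tested, and 0 had an unadjusted p under 0.05, against 4.41%. DESeq2 and limma-voom gave 0 of 3 by both measures as well. Over all genes, DESeq2 called 90 of 16990, and 913 had an unadjusted p under 0.05. For limma-voom these numbers were 27 and 829 of 12390. With edgeR, the fitted log2 fold change was below 0 for 1 of 3, against 49.6% of all genes tested. Between the genotypes, 0 of 3 were without overlap, against 0.258% of all genes. The intervals bound a change of Atp1b1 most tightly and that of Atp1b2 least, and these data do not exclude changes within them.

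**Figure D2:**
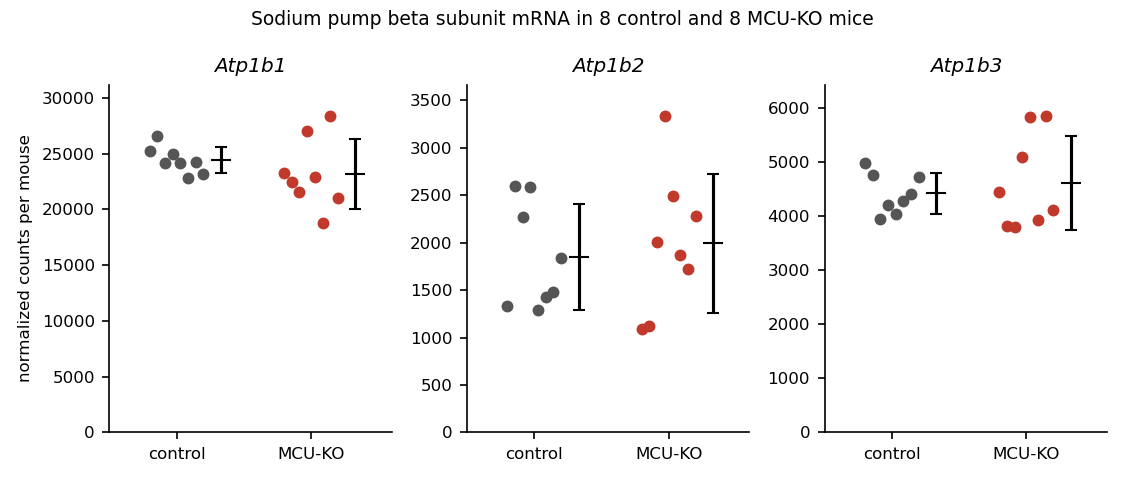
Normalized counts (counts divided by DESeq2's size factors) of Atp1b1, Atp1b2 and Atp1b3 in each of the 8 control and 8 MCU-KO mice, with the mean and SD of each group. The groups overlap for all 3 genes, and the MCU-KO mice spread further than the control mice for Atp1b1 (18754 to 28363 against 22788 to 26556) and Atp1b3 (3804 to 5856 against 3952 to 4987).

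The spread between mice was wider in MCU-KO for Atp1b1 and Atp1b3, which is described here without a test. The coefficient of variation (CV) of the normalized counts of Atp1b1 was 4.87% in control and 13.6% in MCU-KO mice, a ratio of 2.79. For Atp1b3, the CV was 8.41% and 18.8%, a ratio of 2.24. Over all tested genes the median of this ratio was 0.94, and among genes within 2-fold of their levels it was 1.13 for Atp1b1 and 0.99 for Atp1b3. For Atp1b2, the CV was high in both groups, 30.1% and 36.9%, with a ratio of 1.23. Counting error alone would give CVs of 0.621%, 1.46% and 2.24% for Atp1b1, Atp1b3 and Atp1b2 in control mice, all well under the spread between mice. Without MCU-KO mouse 8, the shallowest library, the CVs in MCU-KO mice were 13.9%, 19.5% and 40.2%. The control CVs of Atp1b1 and Atp1b3 were low for their levels, where the median CV of genes within 2-fold was 11.1% and 18.0%, and in MCU-KO mice these medians were 13.2% and 17.3%. MCU-KO mouse 6 had the lowest Atp1b1 and, at 12051 CPM, the lowest summed dopaminergic markers. MCU-KO mouse 7 had the highest of both (19374 CPM for the markers). By the mean log2(CPM + 1) of these markers, MCU-KO mouse 8 was lowest, at 8.65 against 8.69 in mouse 6. MCU-KO mouse 4 had 27042 normalized counts of Atp1b1 with a marker sum of 15688 CPM. The part of the markers in this spread was not tested.

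To describe what each isoform varied with from mouse to mouse, 9 relations of a gene's log2(CPM + 1) to the mean of the dopaminergic, astrocyte or oligodendrocyte markers were computed after the data had been seen. Atp1b2 was higher in mice with higher astrocyte markers, with Pearson's r = 0.73 over 16 mice (permutation test, p = 0.00148, adjusted 0.0133 over the 9 relations) and Spearman's rho = 0.73 (permutation p = 0.00223, adjusted 0.0201). Within genotypes r was 0.76 in control and 0.74 in MCU-KO mice (n = 8 each), and it was 0.69 without the 2 mice with the most extreme marker levels. MCU-KO mouse 4 had both the highest Atp1b2 and the highest astrocyte markers. For Atp1b1 and Atp1b3, r with the astrocyte markers was -0.01 and 0.01 (permutation p = 0.969 and 0.968, adjusted 0.969 for both), with rho of -0.01 for both (permutation p = 0.979 and 0.987, adjusted 0.987 for both). These pooled values did not hold for Atp1b1 within control mice, where r was 0.65 against -0.09 in MCU-KO mice, while for Atp1b3 r was -0.09 and -0.02 (n = 8 each). The difference between these correlations was not tested. Of the 12 astrocyte genes, 10 were higher in MCU-KO, while 49.6% of all genes tested were lower. With edgeR, 0 had an adjusted p under 0.05, against 0.178% of all genes, and 1 had an unadjusted p under 0.05, against 4.41%. The median of the summed astrocyte markers was 1446 CPM in control and 1341 CPM in MCU-KO mice. With the mean of these markers as a covariate the log2 fold change of Atp1b2 was -0.18, and with the oligodendrocyte markers it was -0.19, both opposite in sign to the value without a covariate.

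**Figure D3:**
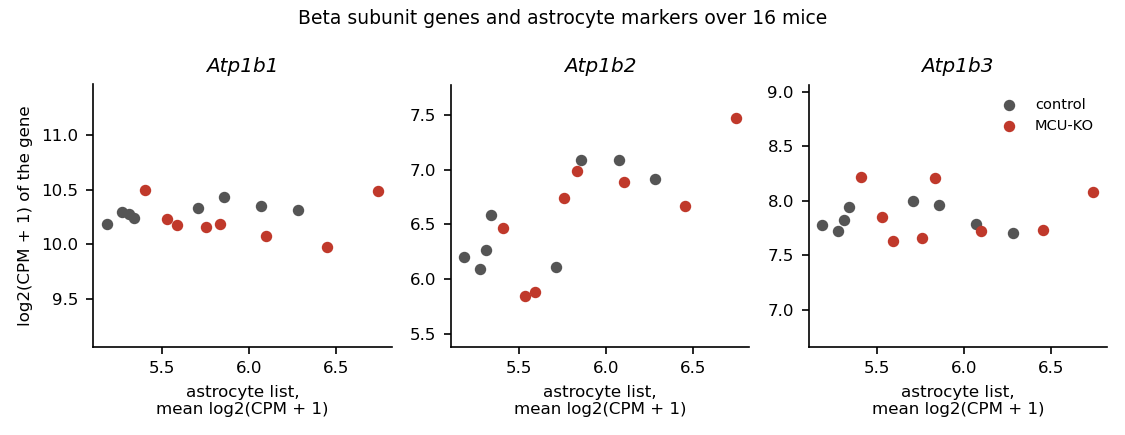
Level of each beta subunit gene, as log2(CPM + 1), against the mean log2(CPM + 1) of the 12 astrocyte marker genes, one point per mouse for 8 control and 8 MCU-KO mice. Over 16 mice r was 0.73 for Atp1b2, -0.01 for Atp1b1 and 0.01 for Atp1b3, and for Atp1b1 it was 0.65 in control and -0.09 in MCU-KO mice.

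Atp1b1 was related to the dopaminergic markers with r = 0.62 (permutation p = 0.0103, adjusted 0.0465) and rho = 0.43 (permutation p = 0.0973, adjusted 0.292). This relation rested on the 2 mice with the most extreme marker levels, without which r was 0.19, and within genotypes r was 0.00 in control and 0.75 in MCU-KO mice. Atp1b3 gave r = 0.45 with the same markers (permutation p = 0.0746, adjusted 0.168) and rho = 0.37 (permutation p = 0.155, adjusted 0.350). For Atp1b2 and the oligodendrocyte markers r was 0.54 (permutation p = 0.0311, adjusted 0.0934) and rho 0.46 (permutation p = 0.0787, adjusted 0.292). This r was 0.10 in control and 0.88 in MCU-KO mice (n = 8 each), and 0.39 without the 2 mice with the most extreme marker levels. The part of astrocyte or other glial mRNA in the level of Atp1b2 was not tested. All values of one mouse come from one library and share its scaling.

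After subtraction of each genotype's mean, Atp1b1 and Atp1b3 varied together across the 16 mice with r = 0.68 on log2 CPM, as a description. Among 10693 genes with a mean of at least 100 counts, this made Atp1b3 the 13th most alike to Atp1b1. Conversely, Atp1b1 was the 45th most alike to Atp1b3. Atp1b2 had r = 0.22 with Atp1b1 and 0.25 with Atp1b3. The genes named next have the highest of these many correlations over 16 mice, where unrelated genes can also reach high values, and none was tested. The genes most alike to Atp1b1 were Foxred1 (r = 0.77), a complex I assembly factor, Usb1 (0.74), an exonuclease that trims U6 RNA, and Tom1 (0.74), an endosomal sorting protein. Within genotypes, Tom1 had r = -0.01 in control and 0.85 in MCU-KO mice (n = 8 each), so that its place rested on the MCU-KO mice. Those most alike to Atp1b2 were Mef2c (0.83), a transcription factor, Lrp6 (0.81), a Wnt coreceptor, and Trim44 (0.80). For Atp1b3 they were Ppp6c (0.83), a phosphatase catalytic subunit, Rasa2 (0.82), a Ras GTPase-activating protein, and Cmpk1 (0.81), a nucleotide kinase.

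The beta subunits work beside small regulators of the pump. FXYD proteins bind the pump and tune its affinity for ions, and of the 7 Fxyd genes listed, 4 were tested, with 1 higher and 3 lower in MCU-KO. None of them passed the test in either direction with edgeR (0 of 4 with an adjusted and 0 of 4 with an unadjusted p under 0.05) or with DESeq2 (0 of 6) or limma-voom (0 of 4). The median log2 fold change was -0.14, beside 0.00 over all tested genes. Over all genes tested with edgeR, 0.178% had an adjusted and 4.41% an unadjusted p under 0.05, and 49.6% were lower in MCU-KO. Fxyd7, a brain regulator that associates with beta1-containing pumps, had 116 ± 33.9 CPM in control and 103 ± 17.8 CPM in MCU-KO mice (SD, n = 8 each), with a log2 fold change of -0.19. At 168 CPM per kb in control mice, it stood between Atp1b1 and Atp1b3. Fxyd6 had 137 ± 24.3 and 157 ± 49.2 CPM (log2 fold change 0.18), and Fxyd1, known as phospholemman, 24.3 ± 10.2 and 22.9 ± 12.1 CPM (-0.10). Fxyd3 and Atp1b4, a member of the beta family by sequence, were at 0 in all 16 mice, which allows at most 3 counts, or 0.212 CPM, in the shallowest library.

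Nkain proteins bind the beta1 subunit, and all 4 Nkain genes were tested, with 3 higher and 1 lower in MCU-KO and a median log2 fold change of 0.27. With edgeR 0 of 4 passed the test, against 0.178% of all genes, and 0 were under 0.05 before adjustment, against 4.41%. Over all genes 49.6% were lower in MCU-KO. Nkain2 had the lowest edgeR p of the 4 Nkain genes, 0.0871 (log2 fold change 0.96, 95% confidence interval -0.15 to 2.08). DESeq2 called 0 of 4, and limma-voom called 0 of 4 with 1 unadjusted p under 0.05, that of Nkain2. Its log2 fold change was 1.59 with limma-voom (unadjusted p = 0.0090, 95% confidence interval 0.44 to 2.75). With DESeq2 it was 0.97 (unadjusted p = 0.0675). Over all genes, limma-voom gave 829 of 12390 an unadjusted p under 0.05. Nkain4 had 24.6 ± 8.96 CPM in control and 26.6 ± 8.78 CPM in MCU-KO mice (SD, n = 8 each).

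Other carriers move ions across membranes, many of them at the cost of the gradients that the pump builds. Of such ion carriers, 16 genes were listed and 14 tested. With edgeR 0 of 14 passed the test, against 0.178% of all genes, and 0 had an unadjusted p under 0.05, against 4.41%. DESeq2 (16 genes) and limma-voom (14 genes) also gave 0 by both measures. Of the 14 tested with edgeR, 8 were higher and 6 lower in MCU-KO, where 49.6% of all genes were lower. Their median log2 fold change was 0.09, with a range of -0.34 to 0.78. Among the 6 highest per kb in control mice were Slc24a3 and Slc24a2, which exchange Na+ for Ca2+ and K+, Slc12a5, the neuronal K+ and Cl- exporter, and Slc4a3 and Slc4a10, which carry bicarbonate. Slc24a3 led at 253 ± 52.6 CPM (SD, n = 8) or 55.5 CPM per kb in control mice, with a log2 fold change of -0.09, and Slc12a5 followed at 28.3 CPM per kb (0.09). Log2 fold changes were 0.10 (Slc4a3), -0.10 (Slc24a2) and 0.31 (Slc4a10).

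**Figure D4:**
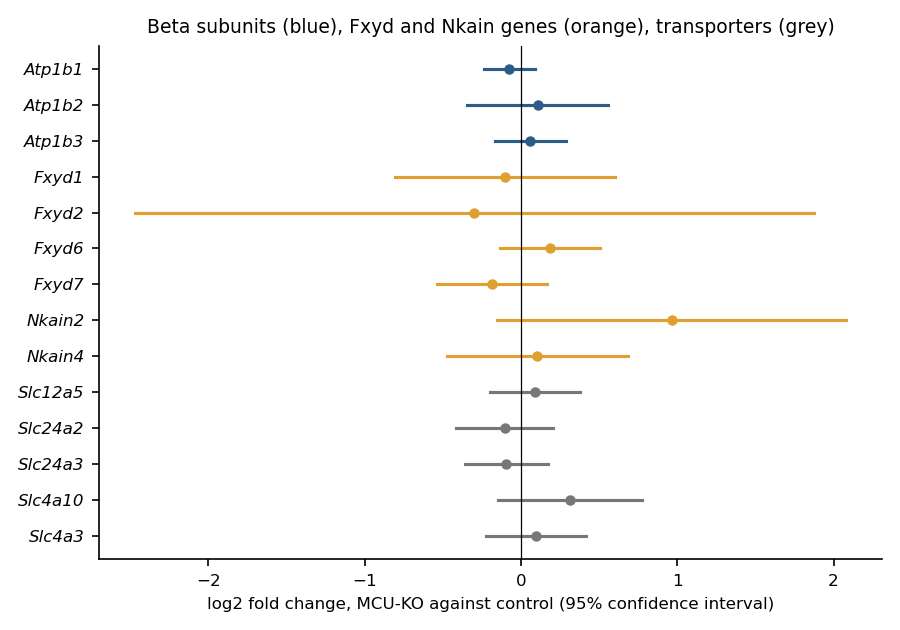
Log2 fold change in MCU-KO against control (edgeR's quasi-likelihood test) with 95% confidence intervals for the 3 beta subunit genes and for the pump regulators and ion carriers described by name. The interval of Atp1b1, from -0.24 to 0.088, is the narrowest of the beta subunits, and none of the genes shown passed the test.

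**Figure D5:**
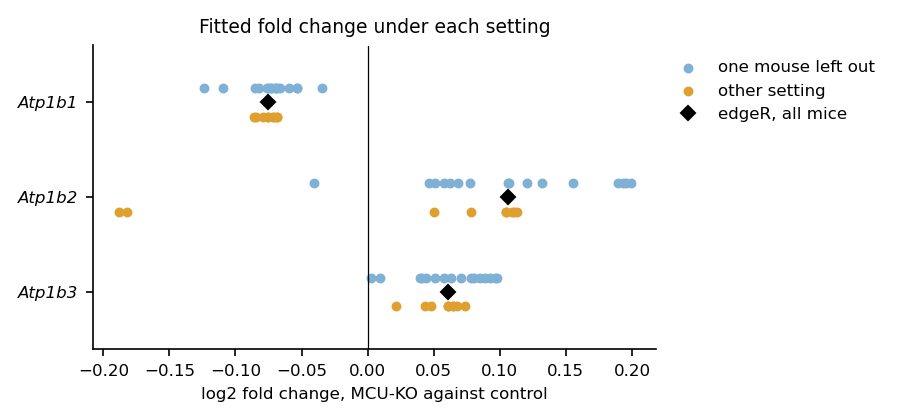
Log2 fold change in MCU-KO against control of Atp1b1, Atp1b2 and Atp1b3 under each alternative setting and without each mouse in turn. Atp1b1 stayed between -0.12 and -0.034 and Atp1b3 between 0.0027 and 0.098, while Atp1b2 ranged from -0.19 to 0.20.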

How the data were processed

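The authors trimmed reads (Trim Galore per the labels, cutadapt per the methods), aligned them with STAR to mm10 and deposited raw whole-number counts per gene from HTSeq. Tool versions, the strand setting and the release of the Ensembl annotation are not given in the sources used here. Symbols, exons and sequences came from GENCODE M21 on GRCm38. Genotypes were compared with edgeR 4.0.16 in R 4.3.3 (filterByExpr, TMM, glmQLFit, glmQLFTest, Benjamini-Hochberg over 12390 genes, threshold 0.05) on all 16 mice. The study's methods used DESeq2, which was an alternative here (1.42.0), as were limma-voom (limma 3.58.1), other normalizations, a stricter filter (10 counts in each of the mice) or none, mouse number as a block, marker covariates and leaving out each mouse in turn. CPM are counts scaled to the library total, and per kb means divided by merged exon length. Ratios used counts plus 1 and exact permutation tests, and correlations with markers 100000 permutations. Fits were tested on simulated counts.

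The genes and lists were chosen with earlier results of these data known. Named were the 3 beta subunit genes, Mcu, the 6 highest per kb of the pump partner and carrier lists, any such gene past the threshold, the 2 highest markers per list and the 3 genes most correlated with each beta subunit gene. Nkain2, Fxyd3, Atp1b4, Nme7 and Gm1848 were named after their values or sequences were seen. Some genes of these lists are not reported here. The labels do not say that any mice share a litter, so each library stands for 1 mouse. Floors of 3 counts and counting CVs reflect counting error alone, because PCR copies were not removed by molecular identifiers. Plots and tables used Python 3.11.15, numpy 2.4.6, pandas 2.3.3, scipy 1.17.1 and matplotlib 3.10.9.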

Additional observations from a re-analysis of the deposited data

Results flagged for a closer look

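In 7 of 72 groups of 8 mice, 1 mouse stood apart from the others by Dixon's criterion. Independent, normally distributed values would give about 3.6, or 1 in 20. The groups share libraries and counts need not be normally distributed, so that number is only a rough guide. None of the 7 was a group of Atp1b1, Atp1b2 or Atp1b3. Among control mice, Slc8a1 was highest in mouse 2 (204 normalized counts) and Slc8a2 in mouse 3 (254). Among MCU-KO mice, Fxyd2 was highest in mouse 7 (180.4 normalized counts), Fxyd6 in mouse 6 (5068) and Nkain2 in mouse 8 (853). The smallest library was that of MCU-KO mouse 8, with a total of 14129527 counts. MCU-KO mouse 6, the mouse with the lowest Atp1b1, had the highest summed level of markers of other neurons, 455 CPM.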

How the results depend on the processing

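Atp1b1 and Atp1b3 kept the sign of their log2 fold change in all 25 alternatives, and no beta subunit gene was called in any (adjusted p from 0.853 to 1.00). Leaving out one mouse at a time, the values were -0.12 to -0.034 for Atp1b1, 0.0027 to 0.098 for Atp1b3 and -0.040 to 0.20 for Atp1b2, negative only without MCU-KO mouse 4. Atp1b2 was also negative with the astrocyte (-0.18) and oligodendrocyte (-0.19) marker covariates. The genotype difference of the Atp1b3 to Atp1b2 log2 ratio ran from -0.13 to 0.067 without single mice (positive without control mouse 1, 5, 6 or 7 or MCU-KO mouse 3, 4, 6 or 8), that of Atp1b1 to Atp1b2 from -0.27 to -0.072 and that of Atp1b1 to Atp1b3 from -0.16 to -0.077. Over all genes, 22 were called, 90 with DESeq2, 14 with the replicate block and 18 to 24 without single mice, and the cause was not tested. Same-numbered mice shared only a number (correlation of deviations -0.061 to 0.031, 0 of 8 pairs over 0.1, and 0 control mice closest to their own number). Under that block the log2 fold changes were -0.086 for Atp1b1, 0.078 for Atp1b2 and 0.043 for Atp1b3. The order of the isoforms in control mice held in every alternative (exact permutation p 0.0078 to 0.0156). The shares depend on the length used, as its construction implies. By coding length, chosen after seeing the data, Atp1b2 held 6.18% in control and 6.87% in MCU-KO mice and Atp1b3 15.5% and 16.6%. With no length, Atp1b1 held 79.6% in control mice, Atp1b2 5.99% and 6.67% and Atp1b3 14.4% and 15.5%.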
